A study of Bos taurus with 4 samples.

Results

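The longissimus thoracis, a long muscle of the back, was compared with 3 other skeletal muscles of Hereford cattle by the levels of noncoding candidate transcripts. It was 1 library of 4 (the others were a muscle of the shoulder blade, here called scapula, with gluteus and an intercostal muscle), and each library was made from total RNA of that muscle mixed in equal amounts from 3 females of 18 months, all fattened on corn silage. Each transcript's level in longissimus thoracis was set against the median of its levels in the other 3 muscles, and a transcript that a library's table does not list was entered as 0. The 4 tables held 63845 transcripts, of which 31263 were listed for longissimus thoracis. By class, 2516 transcripts overlapped a gene's exon from the opposite strand (antisense), 26452 lay within an intron of a gene (intronic) and 34877 lay between genes (intergenic).

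Pooling of the animals leaves no replicates, so no difference could be tested against the spread between animals, and every comparison is a description of size in 4 libraries. The values are FPKM (fragments per kilobase scaled to a library total, made by the authors). Which reads make up that total is not given. In longissimus thoracis the total found was 2132255, beside 2110057 reads recovered on the listed transcripts. In gluteus it was 1107493, beside 1136247. The values may therefore be shares of reads on the listed candidates rather than of all reads sequenced. Parentheses after a level hold its 95% Poisson interval, taken from the reads recovered from that level. These intervals cover counting error only, since PCR reads without molecular identifiers are not independent molecules. A transcript was called higher or lower at a 2-fold difference of FPKM + 1, where any library reached 1 FPKM, which 63839 transcripts met. It is unknown here if reads were counted by strand, and the value of an antisense transcript may include reads of the gene opposite. In whole muscle, fewer cells of a type and less RNA per cell cannot be told apart.

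Most RNA of a muscle comes from multinucleate fibres, which differ between muscles in contractile proteins, fuel use and position along the body. Noncoding RNA in such tissue spans several kinds. Small nucleolar RNAs of the box H/ACA kind guide pseudouridylation of ribosomal RNA and those of the box C/D kind guide its methylation, the RNA of the signal recognition particle serves protein entry into the endoplasmic reticulum, and introns give RNA that is spliced out and usually degraded. Antisense transcripts arise from the strand opposite a gene and can pair with its messenger RNA or run through its promoter.

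The longissimus thoracis library had the most recovered reads, 2110057 against 1136247 to 1512128 in the others, and it stood apart from them. Over the 7188 transcripts listed in every library, Pearson's r of log2(FPKM + 1) was 0.43 to 0.48 between longissimus thoracis and each other muscle and 0.56 to 0.63 among the other muscles, as a description across transcripts that share libraries. The median absolute log2 difference of a transcript was 1.07 to 1.08 for pairs with longissimus thoracis and 0.77 to 0.95 for the others. With 1 library a muscle, the muscle, the pool and the library cannot be told apart.

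Antisense transcripts were more often lower than higher in longissimus thoracis, and intronic transcripts more often higher than lower. Of 2515 antisense transcripts, 549 (21.8%) were called higher and 775 (30.8%) lower. Among 26451 intronic transcripts, 10158 (38.4%) were higher and 5360 (20.3%) lower. Intergenic transcripts gave 13022 (37.3%) higher and 7450 (21.4%) lower of 34873. Over all classes the counts were 23729 (37.2%) higher and 13585 (21.3%) lower.

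The split over all transcripts rests on how the other muscles are summarised. A transcript listed in 1 other muscle alone has a median of 0 and cannot be called lower, whereas one listed in longissimus thoracis alone can be called higher. Against the mean of the other 3 muscles, 35247 transcripts were lower, and the lower share of called transcripts moved from 58.5% to 70.9% for antisense, from 34.5% to 62.2% for intronic and from 36.4% to 61.9% for intergenic transcripts. Of the 3 classes, antisense thus kept a majority of lower calls under both, and the other 2 classes turned.

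In transcripts with more reads, the classes still differed. Over the 7188 transcripts listed in all 4 libraries, 23.7% were higher and 24.6% lower. Antisense transcripts in that set gave 220 higher and 363 lower, intronic transcripts 586 higher and 402 lower, and intergenic transcripts 900 higher and 1000 lower. With a mean of 20 or more reads over the libraries, a filter in which the library with the most recovered reads weighs most, 27.7% of 6236 were higher and 25.5% lower. There the lower share of called transcripts was 63.9% (Wilson interval 60.1 to 67.6) for antisense, 33.3% (30.4 to 36.4) for intronic and 50.1% (47.7 to 52.4) for intergenic transcripts. The Wilson intervals treat transcripts as independent, although they share libraries and some may share reads. They measure no spread between animals or libraries of a muscle. The median log2 ratio was -0.06 for antisense and 0.63 for intronic transcripts. Against the mean, or with any 1 of the other muscles left out, the lower share in the set filtered on reads ran from 64.8% to 71.9% for antisense and from 32.9% to 39.6% for intronic transcripts. In the set listed in all 4 libraries it ran from 63.2% to 72.0% for antisense transcripts under the same changes. For intronic transcripts there it went from 40.7% to 48.8% against the mean (477 higher, 454 lower), 48.2% without gluteus (508 higher, 472 lower), 46.1% without intercostal muscle and 44.0% without scapula, so that the lean to higher calls was slight in the first 2 of these.

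Differences that also exceeded counting error were equally frequent in both directions. Over the transcripts listed in all 4 libraries, 734 (10.2%) were at least 2-fold higher and 733 (10.2%) at least 2-fold lower with Poisson intervals apart from those of each other muscle. Antisense transcripts gave 128 of the higher and 239 of the lower ones. Intronic transcripts gave 242 of the higher and 116 of the lower ones, and intergenic transcripts 364 and 378.

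The direction of calls against the median also moved with level. In transcripts of 5 to 10 FPKM on average over the libraries, 44.5% were higher and 13.8% lower. At 20 to 50 FPKM the shares were 35.1% and 33.7%. At 100 to 1000 FPKM 82 were higher and 186 lower of 776 transcripts. Of the 53 transcripts at 1000 FPKM or more, 7 were higher and 19 lower. Among these most abundant ones, 6 of 10 intronic transcripts were lower and 0 higher, and 13 of 40 antisense transcripts were lower and 7 higher. Antisense transcripts had more lower than higher calls in each range from 10 FPKM up. Intronic transcripts had more higher than lower calls in each range up to 100 FPKM. These calls carry the lean of the median to higher calls for transcripts that few libraries list. Against the mean of the other muscles, intronic transcripts of all levels together had more lower than higher calls. The ranges were not counted against the mean, so the part of this rule in the trend with level was not tested.

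**Figure D1:**
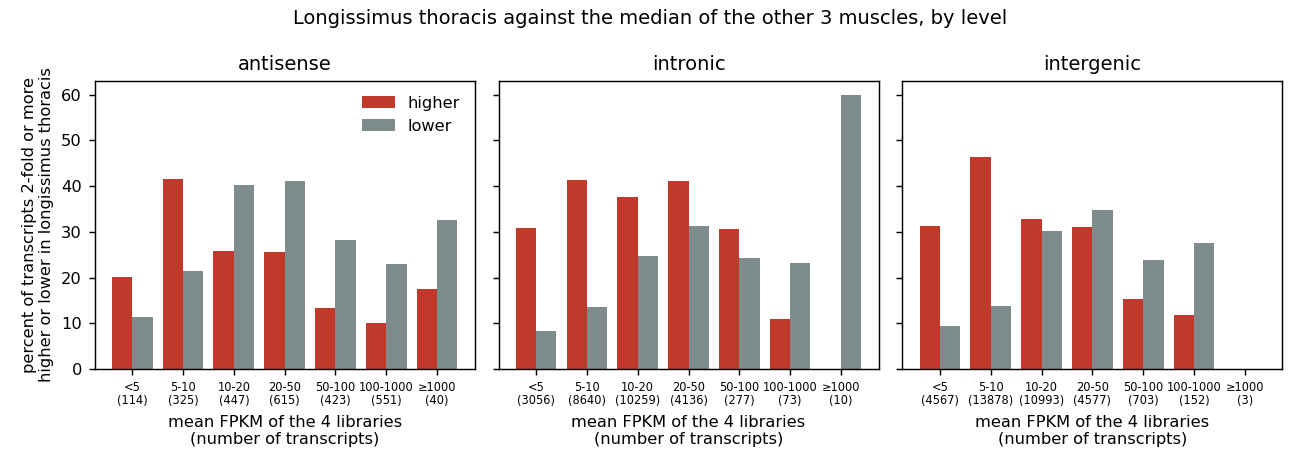
Percent of transcripts at least 2-fold higher (red) or lower (grey) in longissimus thoracis than the median of the other 3 muscles (y axis), by mean FPKM over the 4 libraries (x axis, with the number of transcripts), in a panel per class. At 10 to 20 FPKM, 40.3% of antisense transcripts were lower and 25.7% higher, whereas 24.8% of intronic transcripts were lower and 37.5% higher. The calls carry the lean of the median to higher calls, and the ranges were not counted against the mean.

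Transcripts with many reads were listed for this library alone, and others with many reads elsewhere were not listed for it. With 50 or more reads, 222 transcripts were listed for longissimus thoracis alone, against 9 for scapula, 7 for gluteus and 4 for intercostal muscle. That minimum is not scaled to depth, and longissimus thoracis had the most recovered reads. With 20 or more reads the numbers were 2694, 1418, 406 and 670 in the same order. With no minimum they were 13037, 12206, 3589 and 5534. The 222 comprised 141 intronic, 78 intergenic and 3 antisense transcripts, and none had more than 102 reads. All transcripts listed for 1 library alone held 8.63% of the reads in longissimus thoracis and 8.38% in scapula, 3.18% in gluteus and 4.34% in intercostal muscle. In the opposite direction, of 2994 transcripts that reached 20 reads in all 3 other libraries, 170 (5.68%) were not listed for longissimus thoracis. Taken the same way, gluteus lacked 73 of 3167, intercostal muscle 24 of 2853 and scapula 6 of 2734. A further 71 such transcripts were listed for longissimus thoracis at a level at least 16-fold below the median of the others, against 5 to 19 for each other muscle.

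**Figure D2:**
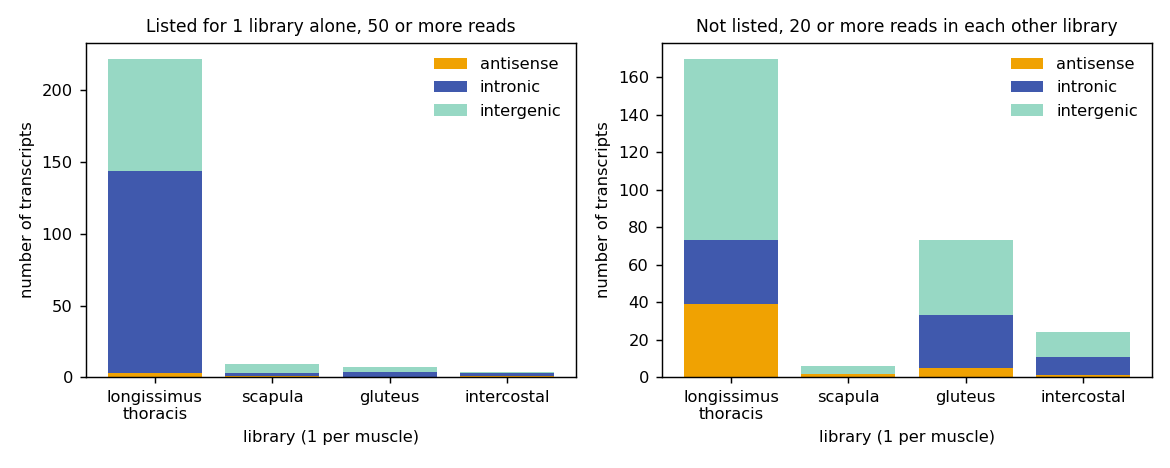
Number of transcripts (y axis) by library (x axis) and class (colour). Left, transcripts listed for that library alone with 50 or more reads, 222 for longissimus thoracis and 4 to 9 for the others. Right, transcripts with 20 or more reads in each other library that the library does not list, 170 for longissimus thoracis and 6 to 73 for the others. The minimums of reads are not scaled to depth.

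The antisense transcripts of highest median level that were not listed for longissimus thoracis lay at genes of varied function. Opposite COQ4, needed to make coenzyme Q, the level was 456 FPKM in scapula, 527 in gluteus and 398 in intercostal muscle. Opposite SHISA2, a membrane protein that acts on Wnt and FGF receptors, it was 448 FPKM in scapula, 1127 in gluteus and 109 in intercostal muscle. For GAS6, which activates receptor kinases of the TAM family, the values were 263 FPKM in scapula, 274 in gluteus and 277 in intercostal muscle, so that those 3 libraries lay close together. The transcript opposite CHKB, a choline kinase of phosphatidylcholine synthesis in muscle, stood at 193 FPKM in scapula, 266 in gluteus and 179 in intercostal muscle. Others in this group were opposite PPDPF, SLC16A5 of the monocarboxylate transporter family and the linker histone gene H1FX, at 35.3 to 311 FPKM in the other muscles. The gene SKIV2L2, an RNA helicase of the nuclear exosome pathway, had an intronic transcript of 196 FPKM in scapula, 132 in gluteus and 161 in intercostal muscle and an antisense transcript of 123 FPKM in scapula, 200.3 in gluteus and 74.8 in intercostal muscle, neither of them listed for longissimus thoracis.

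A pair of antisense transcripts were listed for longissimus thoracis with 1 or 2 reads and had over 300 reads in each other library. The transcript opposite KLHL34, a kelch-like protein, had 2 reads, or 0.952 (0.115 to 3.44) FPKM, in longissimus thoracis and 649 FPKM in scapula, 1738 in gluteus and 738 in intercostal muscle. Opposite CD81, a tetraspanin of many cell types, there was 1 read, or 0.624 (0.0158 to 3.47) FPKM, in longissimus thoracis and 512 FPKM in scapula, 399.8 in gluteus and 384 in intercostal muscle. Both lay below every other library by more than their counting intervals.

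Among antisense transcripts with 20 or more reads in every library, the transcript opposite MGLL had the lowest ratio. MGLL encodes monoglyceride lipase, which completes triglyceride breakdown. Its opposite transcript measured 5.98 (3.90 to 8.76) FPKM in longissimus thoracis and 399 FPKM in scapula, 379 in gluteus and 462 in intercostal muscle, a log2 ratio of -5.84, and the other 3 lay within a narrow range. Opposite CAMK2B, a subunit of the calcium/calmodulin-dependent kinase, the value was 9.71 (6.80 to 13.4) in longissimus thoracis against 269 FPKM in scapula, 260.3 in gluteus and 242 in intercostal muscle. The same pattern of 1 low library and 3 close ones was seen opposite UBE2G2, a ubiquitin-conjugating enzyme of endoplasmic reticulum quality control, with 10.9 (7.25 to 15.8) FPKM against 177 FPKM in scapula, 156 in gluteus and 134 in intercostal muscle. It was seen too opposite SEC61A1, the channel for protein entry into that compartment, with 11.9 (8.44 to 16.4) against 160.3 FPKM in scapula, 107 in gluteus and 150.2 in intercostal muscle. A transcript opposite ENSBTAG00000045710 measured 909 (853 to 968) FPKM in longissimus thoracis and 12994 FPKM in scapula, 10458 in gluteus and 6842 in intercostal muscle.

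At the other end, the highest ratios among these well-read antisense transcripts often had gluteus as the nearest muscle. Opposite GNPTAB, an enzyme that tags lysosomal proteins, the level was 383 (353 to 415) FPKM in longissimus thoracis, with 43.8 FPKM in scapula, 245 in gluteus and 51.2 in intercostal muscle. NPNT encodes nephronectin, a matrix ligand of integrins, and the transcript opposite it gave 245 (226 to 265) against 37.3 FPKM in scapula, 172 in gluteus and 23.9 in intercostal muscle. Opposite PHKB, the beta subunit of phosphorylase kinase, the values were 3298 (3239 to 3358) against 756 FPKM in scapula, 2193 in gluteus and 644 in intercostal muscle. The transcript opposite DNAJB4, a chaperone of the HSP40 family, stood at 2255 (2220.0 to 2289.7) against 212 FPKM in scapula, 1699 in gluteus and 487 in intercostal muscle. In all 4 of these, longissimus thoracis was highest, gluteus second, and the scapula and intercostal muscles well below. Left out in turn, scapula and then intercostal muscle, the log2 ratio was 1.36 and 1.40 in place of 2.88 opposite GNPTAB and 1.31 and 1.22 in place of 2.68 opposite NPNT. In the same order it was 1.22 and 1.16 in place of 2.12 opposite PHKB, and 1.04 and 1.24 in place of 2.21 opposite DNAJB4.

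For 2 of the 10, gluteus lay above longissimus thoracis. Opposite ABRA, an actin-binding protein of striated muscle, the level was 784 (750.3 to 818) in longissimus thoracis against 83.3 FPKM in scapula, 1393 in gluteus and 148 in intercostal muscle. Opposite UCP3, a mitochondrial carrier of muscle, it was 3032 (2902 to 3166) against 678 FPKM in scapula, 3958 in gluteus and 406 in intercostal muscle. Both calls ended without scapula (log2 ratios of 0.02 and 0.47) and without intercostal muscle (0.09 and 0.39). The others, opposite TTLL7 (a tubulin polyglutamylase), PAPD5 (a noncanonical poly(A) polymerase), TMED5 (a cargo protein of the secretory pathway) and ENSBTAG00000000395, were higher in longissimus thoracis than in each other muscle, with log2 ratios of 2.35, 2.35, 2.15 and 3.11. Without scapula, those of TTLL7, TMED5 and ENSBTAG00000000395 were 1.42, 1.51 and 1.88. PAPD5 was the 1 of these with a level in gluteus close to the other 2, at 90.3 FPKM in longissimus thoracis against 16.9 FPKM in scapula, 24.7 in gluteus and 15.9 in intercostal muscle. Over the 226 antisense transcripts called higher with a mean of 20 or more reads, the highest of the other muscles was gluteus in 126, intercostal muscle in 55 and scapula in 45. For the 629 intronic ones it was scapula in 292, intercostal muscle in 181 and gluteus in 156.

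**Figure D3:**
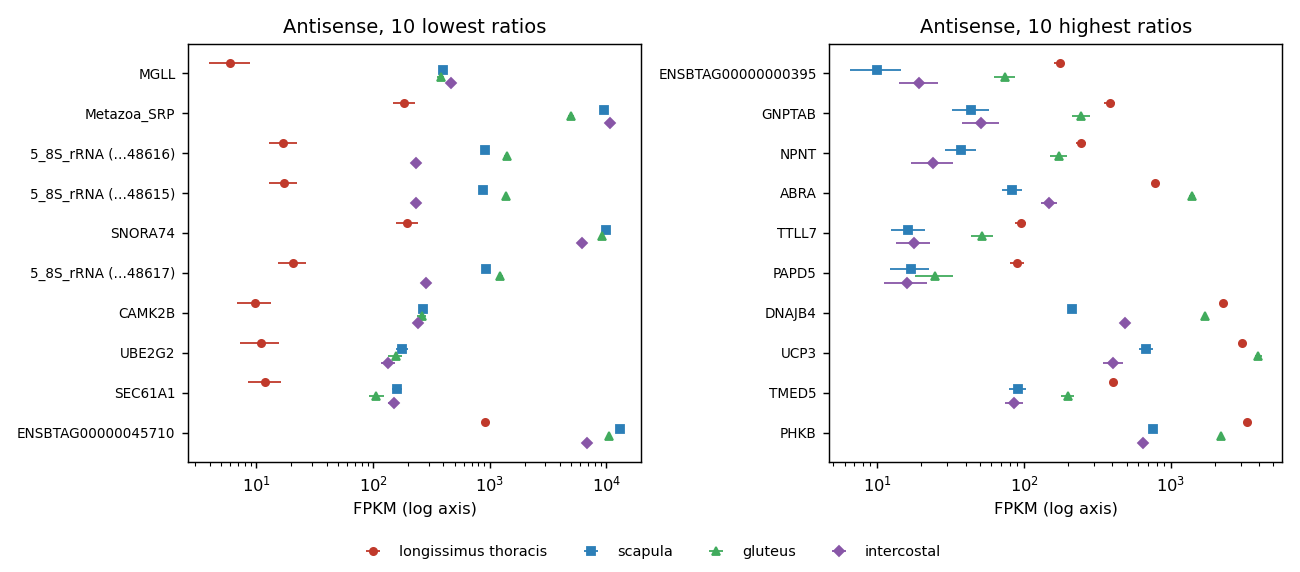
FPKM (x axis, log scale) of the antisense transcripts with the 10 lowest (left) and 10 highest (right) ratios among those with 20 or more reads in every library, named by gene, with 1 point per library and bars for 95% Poisson intervals. At left longissimus thoracis lies below the other 3 in every row; at right it is the highest in 8 of 10 rows, and gluteus lies above it at ABRA and UCP3.

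Without the minimum of reads, the highest antisense ratios belonged to transcripts that were listed in 1 other muscle at most. The highest was opposite SRA1, the steroid receptor RNA activator, at 140.3 (95.9 to 198) FPKM in longissimus thoracis and 37.1 (13.6 to 80.7) in scapula. Opposite CTNNA3, an alpha catenin of heart and muscle, 4 of the 15 highest transcripts lay at 81.9 to 133 FPKM. The transcript opposite NCOA2, a coactivator of nuclear receptors, had 100 reads (100.4 FPKM) in longissimus thoracis and 1 read in intercostal muscle. Opposite RET, a receptor tyrosine kinase, it had 50 reads and 2 reads in intercostal muscle. Opposite IPMK, an inositol phosphate kinase, 90 reads stood against 5 in gluteus. The SRA1 and IPMK transcripts are each listed in 1 other muscle, and against 2 muscles in place of 3 the ratio opposite SRA1 went from 7.14 to 2.85 (without gluteus or intercostal muscle) and that opposite IPMK from 6.63 to 3.99 (without scapula or intercostal muscle). Transcripts opposite CAPRIN2 (91.4 FPKM) and MYBPHL (80.8 FPKM), a relative of myosin-binding protein H, had 54 and 52 reads, with 0 reads listed elsewhere for the first and 1 for the second.

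Transcripts assigned to genes of structured RNA made up some of the lowest ratios. All of them are antisense by class, so each value is of a transcript opposite the named gene. The structured RNAs themselves were not measured apart from these transcripts. Of 28 transcripts at genes of box H/ACA small nucleolar RNAs, 21 were lower in longissimus thoracis and 2 higher, beside 30.8% lower and 21.8% higher over all antisense transcripts, with a median log2 ratio of -1.80 and 11 not listed for it. At SNORA74, a transcript measured 197 (158 to 242) FPKM in longissimus thoracis and 9977 FPKM in scapula, 9183 in gluteus and 6128 in intercostal muscle, and a second one, not listed for longissimus thoracis, had 1326 FPKM in scapula, 1762 in gluteus and 1023 in intercostal muscle. The low calls did not include the transcripts at SNORA53 and SNORA23, which held most of the reads of this group. The transcript at SNORA53 stood at 70876 FPKM in longissimus thoracis against 37510.0 FPKM in scapula, 80244 in gluteus and 37933 in intercostal muscle, so longissimus thoracis and gluteus lay together above the other 2. The transcript at SNORA23 stood at 2673 against 4263 FPKM in scapula, 4020.3 in gluteus and 3296 in intercostal muscle, the lowest of the 4 but within 2-fold. Over the 28 transcripts the median level was highest in gluteus, at 88.5 FPKM against 4.74 in longissimus thoracis, 23.3 in scapula and 9.27 in intercostal muscle.

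Both transcripts at the signal recognition particle RNA were lower in longissimus thoracis. The more abundant stood at 186 (148 to 231) FPKM against 9630.3 FPKM in scapula, 4947 in gluteus and 10745 in intercostal muscle. The second stood at 82.7 (61.2 to 109) against 899 FPKM in scapula, 3299.9 in gluteus and 693 in intercostal muscle. All 4 transcripts at the ribosomal RNA of the large subunit named 5_8S_rRNA were lower too, and 3 of them had 53 reads each in longissimus thoracis. These 3 have neighbouring transcript numbers and similar read numbers in every library, so they may count the same reads and are described as 1 observation. One of them measured 17.1 (12.8 to 22.3) FPKM in longissimus thoracis and 904 FPKM in scapula, 1395 in gluteus and 235 in intercostal muscle. The fourth, absent from the longissimus thoracis table, stood at 334 FPKM in scapula, 703 in gluteus and 73.4 in intercostal muscle. At SCARNA6, a guide RNA of Cajal bodies, the values were 366 (320.3 to 416) against 1267 FPKM in scapula, 827 in gluteus and 917 in intercostal muscle. The transcript at SCARNA21 was not listed for longissimus thoracis, with 805 FPKM in scapula, 360.5 in gluteus and 270.4 in intercostal muscle.

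Box C/D transcripts were not uniformly low. At SNORD112 and SNORD113, gene arrays of the imprinted DLK1-MEG3 region, 10 of 25 transcripts were higher and 1 lower, beside 21.8% higher and 30.8% lower over all antisense transcripts, with a median log2 ratio of 0.53. That split rests on the other libraries: 10 were higher and 8 lower without gluteus, 7 higher and 10 lower without intercostal muscle, and 13 higher and 2 lower without scapula. Summed reads there were 332 RPM (reads-per-million of the library total) in longissimus thoracis, 493 in scapula, 174 in gluteus and 118 in intercostal muscle, so the sum was highest in scapula. Of the 18 other box C/D transcripts, 4 were higher and 8 lower, beside the same shares over all antisense transcripts. The transcript at SNORD65 was higher than in each other muscle, at 160.0 (137 to 186) FPKM against 34.8 FPKM in scapula, 61.6 in gluteus and 39.9 in intercostal muscle, and one transcript at SNORD49 lower, at 1.61 (0.196 to 5.83) against 35.3 FPKM in scapula, 63.7 in gluteus and 58.7 in intercostal muscle. For U6, the small nuclear RNA of the spliceosome, 3 of 7 transcripts were higher and 3 lower. The choice of these RNA groups was made after their values were seen.

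Among 32 transcripts at microRNA genes, 15 were lower and 4 higher in longissimus thoracis, beside 30.8% lower and 21.8% higher over all antisense transcripts, and 15 were not listed for it. Without gluteus 1 was higher and 19 lower, and without intercostal muscle 2 were higher and 14 lower. These are long transcripts across microRNA loci, and mature microRNAs were not measured. At bta-mir-133a-2, from a microRNA family of striated muscle, the level was 926 (904 to 948) FPKM in longissimus thoracis against 722 FPKM in scapula, 770.3 in gluteus and 566 in intercostal muscle, higher than each but not by 2-fold. Longissimus thoracis was lowest at bta-mir-206, a microRNA of skeletal muscle, with 15.9 (12.7 to 19.7) against 33.6 FPKM in scapula, 59.7 in gluteus and 40.3 in intercostal muscle. It was also lowest at bta-mir-133b, with 116 (104 to 129.6) against 172 FPKM in scapula, 218 in gluteus and 273 in intercostal muscle, within 2-fold of their median. At bta-mir-99a longissimus thoracis (188 FPKM) and gluteus (136) lay below scapula (571) and intercostal muscle (527), a log2 ratio of -1.48 that was -0.82 without scapula and -0.91 without intercostal muscle. The transcripts at bta-mir-1-1 and bta-mir-30a were not listed for longissimus thoracis and had at most 16 and 44 reads in another library.

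**Figure D4:**
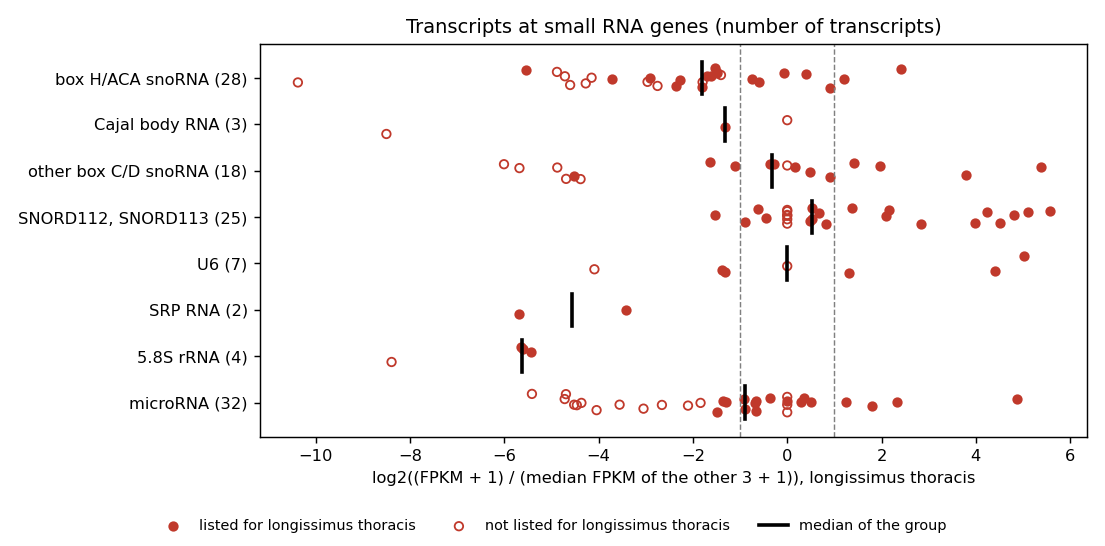
Log2 ratio of longissimus thoracis to the median of the other 3 muscles (x axis, FPKM + 1) for each transcript at a gene of structured RNA or microRNA, by group (y axis, with the number of transcripts). Open circles are transcripts not listed for longissimus thoracis, black bars are group medians (-1.80 for box H/ACA, 0.53 for SNORD112 and SNORD113), and dashed lines mark 2-fold.

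Intronic transcripts with 20 or more reads in every library and the lowest ratios included ones at genes of the sarcomere and basement membrane. The lowest ratio lay in TBC1D31, a protein of the centrosome, at 313 (265 to 366) FPKM in longissimus thoracis against 3107 FPKM in scapula, 3616 in gluteus and 1458 in intercostal muscle. NID1 encodes nidogen, which links laminin and collagen in basement membranes, and its intronic transcript stood at 98.02 (77.6 to 122) against 913 FPKM in scapula, 411 in gluteus and 732 in intercostal muscle. In DHRS3, a retinal reductase, the values were 143 (121 to 167) against 593 FPKM in scapula, 931 in gluteus and 1794 in intercostal muscle. Transcripts in TRIM45, LIMCH1, LUC7L, WDR70 and CD99 had log2 ratios of -2.57, -2.18, -2.10, -2.06 and -2.02, and longissimus thoracis was below each other muscle in all 5. A further intronic transcript in WDR70 was called higher, with a log2 ratio of 6.59.

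The 3 abundant transcripts in NEB were lower together. NEB encodes nebulin, the giant protein along the thin filament. The first measured 2174 (2067 to 2285) FPKM in longissimus thoracis and 12404 FPKM in scapula, 13252 in gluteus and 14861 in intercostal muscle. The second gave 3796 (3684 to 3911) against 8078 FPKM in scapula, 9038 in gluteus and 10350.5 in intercostal muscle. The third gave 2757 (2687 to 2829) against 7203 FPKM in scapula, 9051 in gluteus and 8137 in intercostal muscle. In each the other 3 muscles lay close together, and longissimus thoracis lay below all of them.

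The highest ratios in well-read intronic transcripts were smaller in size. The highest was in LDB3, a protein of the Z disc, at 79.2 (70.1 to 89.1) FPKM against 19.1 FPKM in scapula, 52.1 in gluteus and 11.2 in intercostal muscle. In RBPJ, the transcription factor of the Notch pathway, the level was 52.3 (44.9 to 60.6) against 12.6 FPKM in scapula, 18.9 in gluteus and 12.01 in intercostal muscle. TRA2A, a splicing factor, gave 60.9 (53.4 to 69.2) against 19.6 FPKM in scapula, 12.4 in gluteus and 15.4 in intercostal muscle. Transcripts in PRRX1 (a homeobox factor of mesenchyme), SESN1 (a stress-responsive regulator of mTOR signalling), TTC23 and TBC1D4 (a regulator of glucose transporter traffic) were also above each other muscle, by log2 ratios of 1.75, 1.73, 1.64 and 1.63. The SESN1 ratio was 0.93 without scapula or gluteus, and that of LDB3 1.13 without intercostal muscle. In UNC13C, with a log2 ratio of 1.63, gluteus was the highest muscle at 1417 FPKM against 718 in longissimus thoracis, and the ratio turned to -0.17 without scapula and -0.20 without intercostal muscle.

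Without a minimum of reads, the largest intronic ratios were those of transcripts listed for longissimus thoracis and at most 1 other muscle. They lay in ERGIC2 at 190.2 FPKM, RBFOX2 (a splicing factor) at 183, AUTS2 at 176, DTNA (dystrobrevin, of the dystrophin complex) at 176 and PICALM (a clathrin adaptor) at 173. The ratios of ERGIC2, AUTS2 and DTNA went from 7.58, 7.47 and 7.47 to 4.00, 3.09 and 4.59 without gluteus or intercostal muscle. The transcript in EYA4, a transcription coactivator of muscle development, had 113 reads, or 142 (117 to 170.4) FPKM, in longissimus thoracis and 8 reads in gluteus. Listed for longissimus thoracis alone, the 15 gene-assigned transcripts with the most reads were all intronic, from 88 reads in ATRX, a chromatin remodeller, to 74 in CYSTM1. They included FLT1, TCF7L2 (a factor of Wnt signalling) and PPP1R12A (a subunit of myosin phosphatase).

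At the low end of all intronic transcripts, the 15 lowest were not listed for longissimus thoracis. In QKI, an RNA-binding protein of splicing, the level was 86.3 FPKM in scapula, 135 in gluteus and 84.3 in intercostal muscle. Others lay in PARD3 (a cell polarity protein), PCSK5 (a proprotein convertase), AKAP6 (an anchor of protein kinase A in muscle), COL5A1 (a fibrillar collagen chain) and ACVR2A (a receptor of activin and myostatin). These are single transcripts, and others in the same gene can differ. In PCSK5, 6 of 13 intronic transcripts were higher and 1 lower, and in ACVR2A 4 of 16 were higher and 3 lower.

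Grouped by host gene, the intronic transcripts leaned higher. Of 862 genes with 8 or more intronic transcripts, 624 had more transcripts higher than lower, 174 had more lower and 64 equal numbers, a split that carries the lean of the median to higher calls. Summed intronic RPM do not carry it, and they were highest in longissimus thoracis for 364 genes, in scapula for 323, in intercostal muscle for 112 and in gluteus for 63. They were lowest in longissimus thoracis for 113 genes, against 434 in gluteus, 246 in intercostal muscle and 65 in scapula. No intronic read was found in longissimus thoracis for 9 of these genes, against 2 in scapula, 14 in intercostal muscle and 44 in gluteus. The minimum of 8 counts transcripts listed in any library, so a library that lists more of its own brings in more genes. Over all classes, longissimus thoracis and scapula listed the most transcripts alone, at 13037 and 12206 against 3589 in gluteus and 5534 in intercostal muscle.

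PKN2, a serine/threonine kinase, had all 9 of its intronic transcripts higher in longissimus thoracis, with 98.0 RPM against 5.95 in scapula, 7.22 in gluteus and 1.52 in intercostal muscle. PACSIN2, which bends membranes in endocytosis, had 8 of 10 higher and 96.6 RPM against 3.97, 18.1 and 6.07 in the same order. In PICALM, 8 of 13 were higher and 1 lower, with 167 RPM against 44.3, 4.51 and 17.4. FLT1, a receptor of vascular endothelial growth factor, had 6 of 10 higher and 1 lower, with 210.1 RPM against 50.9, 29.8 and 67.5. CCNL1, a cyclin of splicing, ASXL2, a Polycomb-related protein, NNT, the mitochondrial transhydrogenase, and RAPGEF1, a guanine nucleotide exchange factor, completed the highest 8.

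On the low side, NFATC1, a transcription factor of calcineurin signalling, had 9 of 10 intronic transcripts lower and 0 reads in longissimus thoracis against 71 in scapula, 34 in gluteus and 139 in intercostal muscle. EPS15L1, an endocytic adaptor, had 0 reads against 84, 16 and 99 in the same order. MEF2D, a transcription factor of muscle genes, had 7 of 9 lower and 9.85 RPM against 66.1, 57.8 and 107.7. PPTC7, a mitochondrial phosphatase, had 6 of 8 lower and 15.9 RPM against 92.6, 103 and 116. UBE2D1, CTBP2, ASAP1 and CPEB4 were the others, all with summed reads below each other muscle.

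**Figure D5:**
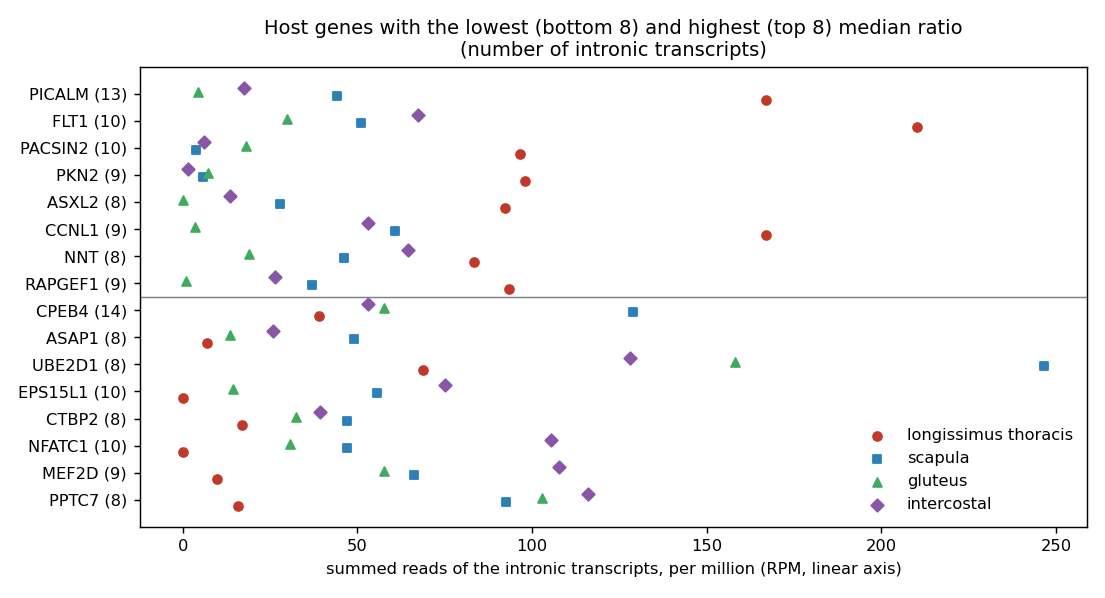
Summed intronic reads in RPM (x axis, linear) of the 8 host genes with the highest and the 8 with the lowest median log2 ratio (y axis, with the number of intronic transcripts), with 1 point per library. Longissimus thoracis was highest in all 8 genes above the line, for example 98.0 RPM at PKN2, and lowest in all 8 below it, with 0 reads at NFATC1 and EPS15L1; the genes were chosen by these same values.

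The 10 genes with the most intronic transcripts each had more of them higher than lower, but summed reads were highest in longissimus thoracis for 5 of them and in scapula for the other 5. PRKG1, the cyclic GMP-dependent kinase, had 108 of 213 higher and 23 lower, with 1299 RPM against 782 in scapula, 469 in gluteus and 477 in intercostal muscle. IMMP2L, a mitochondrial peptidase subunit, had 83 of 159 higher and 13 lower. CMSS1 had 95 of 194 higher and 28 lower, with 2244 RPM against 2523 in scapula. ZBTB20 and NFIA, transcription factors, had 60 higher and 42 lower of 157, and 46 higher and 32 lower of 146, but their summed reads were highest in scapula, at 1536 and 1523 RPM against 870.4 and 1122 in longissimus thoracis. EBF1 and PALLD were likewise highest in scapula, at 1171 and 1433 RPM against 890.1 and 1319.7 in longissimus thoracis.

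By these calls, introns leaned higher at genes with antisense transcripts of any call, as they did over host genes in general. Over the 862 genes with 8 or more intronic transcripts, 624 had more higher and 174 more lower. In 132 genes with antisense transcripts called higher and none lower, and with 3 or more intronic transcripts, introns were more often higher in 84 and more often lower in 29. In 127 genes with antisense transcripts called lower and none higher, the numbers were 70 and 34. In 283 genes with antisense transcripts that were neither, they were 174 and 60. These counts carry the lean of the median to higher calls. The median of the genes' intronic median log2 ratios was 0 in each of the 3 groups.

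The gene lists below carry the lean of the median too. All 14 lists with 20 or more intronic transcripts had more of them higher than lower, but against the mean of the other muscles only 3 did and 11 had more lower. Without gluteus 4 lists had more higher and 10 more lower, without intercostal muscle 5 and 9, and without scapula 8 and 5 with 1 equal. The counts of intronic calls per list are therefore descriptions under 1 way of summarising the other muscles. The shares to set beside each list are 38.4% higher and 20.3% lower over all intronic transcripts. For antisense transcripts they are 21.8% higher and 30.8% lower.

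Contractile genes were lower in several of their most abundant transcripts and mixed in the rest. In the list of filament, Z disc and M band genes, 36 of 93 intronic transcripts were higher and 19 lower, beside 38.4% and 20.3% over all intronic transcripts. Their summed reads were 19051 RPM in longissimus thoracis against 36082, 43710.4 and 43521 in scapula, gluteus and intercostal muscle. NEB alone held 17180 RPM in longissimus thoracis against 34938, 41974 and 42303 in the same order. The lower sum is therefore that of NEB and does not describe the other genes of the list. Antisense transcripts of the list gave 1 higher and 2 lower of 8. The transcript opposite FHL1, a LIM protein of the sarcomere, had a log2 ratio of -1.55. Opposite ACTN2, a Z disc actin crosslinker, longissimus thoracis (12314 FPKM) lay between gluteus (8838) and intercostal muscle (15571). At genes of fast fibres, 3 of 5 intronic transcripts were lower and 1 higher. The 2 in MYLK2, the skeletal myosin light chain kinase, went in opposite directions, with log2 ratios of 5.97 and -5.23. The low one measured 6.04 (1.25 to 17.6) FPKM in longissimus thoracis and 139 FPKM in scapula, 504 in gluteus and 264 in intercostal muscle. At genes of slow fibres, 3 of 9 were lower and 2 higher.

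The dystrophin complex had 83 of 170 intronic transcripts higher and 23 lower, beside 38.4% and 20.3% over all intronic transcripts. The median log2 ratio was 0.66 beside a median of 0 over all intronic transcripts. Against the mean of the other muscles 78 were higher and 81 lower. Without gluteus the numbers were 78 and 71, without intercostal muscle 79 and 67, and without scapula 82 and 47. Of the 170, 34 lay in SNTB1, a syntrophin, and without it 54 of 136 were higher and 21 lower, with a median of 0. Its antisense transcripts were within 2-fold, for example opposite SGCD, a sarcoglycan, at 156 FPKM in longissimus thoracis against 201 FPKM in scapula, 188 in gluteus and 221 in intercostal muscle. In calcium handling, 83 of 181 intronic transcripts were higher and 38 lower, beside 38.4% and 20.3% over all intronic transcripts, with a median log2 ratio of 0. Of the 181, 107 lay in PPP3CA, the calcineurin catalytic subunit, and without it 33 of 74 were higher and 16 lower. Against the mean of the other muscles 77 of the 181 were higher and 82 lower. Opposite SRL, sarcalumenin of the sarcoplasmic reticulum, the level was 122 (113 to 132) against 486 FPKM in scapula, 754 in gluteus and 475 in intercostal muscle. In JPH1, the junctophilin of the triad, an intronic transcript stood at 189 (155 to 228) against 96.9 FPKM in scapula, 6.61 in gluteus and 75.00 in intercostal muscle.

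At genes of glycogen and glucose use, 30 of 50 intronic transcripts were higher and 11 lower, beside 38.4% and 20.3% over all intronic transcripts, with a median log2 ratio of 2.85, and 20 of the 50 lay in PFKFB1. Their summed reads were close in 3 muscles, at 571 RPM in longissimus thoracis, 552 in scapula, 190.5 in gluteus and 566 in intercostal muscle. Without gluteus 21 were higher and 22 lower. In PFKFB3, an enzyme that makes the activator of phosphofructokinase, 1 transcript had 249 reads, or 263 (231 to 298) FPKM, in longissimus thoracis, 8 in scapula, 1 in gluteus and none listed in intercostal muscle. Antisense transcripts at PHKB and PPP1R3A, the glycogen-targeting subunit of muscle phosphatase, were both higher. The PPP1R3A one stood at 617 (605 to 629) FPKM against 289 FPKM in scapula, 421 in gluteus and 266 in intercostal muscle, a log2 ratio of 1.09 that was 0.84 without scapula and 0.79 without intercostal muscle. Opposite HK2, the muscle hexokinase, longissimus thoracis was second at 458 FPKM behind gluteus at 693.

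Genes of fat and mitochondrial oxidation went in both directions. Of 32 intronic transcripts of fatty acid genes, 10 were higher and 3 lower. The 2 antisense transcripts were split, with UCP3 higher and MLYCD, malonyl-CoA decarboxylase, lower at 57.3 (45.5 to 71.2) FPKM against 303 FPKM in scapula, 501 in gluteus and 264 in intercostal muscle. At oxidative phosphorylation and citrate cycle genes, 2 of 5 antisense transcripts were lower and 0 higher, and both lay at COQ4, of which the more abundant is described above. The other 3 were within 2-fold. Opposite UQCRB, a subunit of the respiratory chain, longissimus thoracis (773 FPKM) lay between scapula (666) and intercostal muscle (832).

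Several abundant antisense transcripts at RNA-binding genes were at similar levels in the 4 libraries. Of 21 opposite splicing and RNA-binding genes, 6 were higher and 2 lower, beside 21.8% higher and 30.8% lower over all antisense transcripts. Opposite CNBP, a nucleic acid binding protein, the levels were 19001 FPKM in longissimus thoracis and 18681 FPKM in scapula, 20716 in gluteus and 22312 in intercostal muscle. Opposite MBNL1, the muscleblind splicing regulator, the more abundant transcript stood at 1668 against 1331 FPKM in scapula, 1521 in gluteus and 1227 in intercostal muscle. RBM24, a splicing factor of striated muscle, had its opposite transcript at 576 against 278 FPKM in scapula, 747 in gluteus and 209 in intercostal muscle, with longissimus thoracis and gluteus above the other 2, and its ratio of 1.05 was 0.27 without scapula and 0.17 without intercostal muscle. Of 5 transcripts opposite translation factors, 1 was higher and 0 lower, the higher one opposite SRP14 of the signal recognition particle, at 249 FPKM in longissimus thoracis, 73.4 in gluteus and 68.5 in intercostal muscle and not listed for scapula. Opposite RPL13A, a ribosomal protein, the level was lower at 643 (597 to 691) against 1528 FPKM in scapula, 1259.8 in gluteus and 1784 in intercostal muscle, whereas opposite RPS12 it was 399.9 against 360.2 FPKM in scapula, 193 in gluteus and 474 in intercostal muscle.

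At immediate early genes 4 of 7 antisense transcripts were lower and 1 higher, beside 30.8% lower over all antisense transcripts. IER5 held 2 of the 4, and without it 2 of 5 were lower and 1 higher, with a median log2 ratio of -0.10 in place of -3.16. The transcript opposite JUN, a subunit of AP-1, had 13 reads, or 14.8 (7.86 to 25.2) FPKM, in longissimus thoracis against 1135 FPKM in scapula, 2477 in gluteus and 786 in intercostal muscle. Opposite IER5, another immediate early gene, the level was 20.02 (14.6 to 26.8) against 225 FPKM in scapula, 166 in gluteus and 187 in intercostal muscle. NR4A3, a nuclear receptor induced by exercise, went the other way at 78.3 (71.3 to 85.8) FPKM against 1.20 FPKM in scapula, 180.2 in gluteus and 3.57 in intercostal muscle, where gluteus was higher still and 2 muscles were near 0. Its log2 ratio of 4.12 turned to -0.23 without scapula and -0.21 without intercostal muscle. Opposite KLF6 and BTG2 the ratios were within 2-fold.

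At genes of autophagy and protein breakdown, the transcript opposite BNIP3, a receptor of mitophagy, was lower at 245 (220.4 to 271) FPKM against 1176 FPKM in scapula, 1884 in gluteus and 1846 in intercostal muscle. Opposite its paralog BNIP3L the ratio was -0.54, with longissimus thoracis between gluteus and scapula. Intronic transcripts of this list gave 37 higher and 28 lower of 122.

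Myogenic genes had 42 of 92 intronic transcripts higher and 17 lower, and positional genes 12 of 21 higher and 4 lower, beside 38.4% and 20.3% over all intronic transcripts. In the first list 40 of the 92 lay in MEF2A, a transcription factor of muscle genes, and without it 22 of 52 were higher and 12 lower. In the second 10 of the 21 lay in TBX15, and without it 5 of 11 were higher and 4 lower. Opposite MYF6, a myogenic factor of mature fibres, longissimus thoracis (604 FPKM) lay between gluteus (488) and intercostal muscle (652), and the level of MYF6 itself was not measured. Opposite EYA4, the level was 717 against 297 FPKM in scapula, 813 in gluteus and 234 in intercostal muscle, with gluteus above longissimus thoracis, and the ratio of 1.27 was 0.45 without scapula and 0.37 without intercostal muscle. Among positional genes, the transcript opposite TBX15, a T-box factor of limb and fibre identity, was lower at 173 (161 to 186) against 446 FPKM in scapula, 579 in gluteus and 406 in intercostal muscle. The transcript opposite HOXC10, a gene of posterior identity, was listed for longissimus thoracis at 48.7 (39.2 to 59.8) and gluteus at 82.5 (65.4 to 103) and for neither other muscle, so its ratio of 5.64 was 0.24 without either of them. Opposite the imprinted CDKN1C, a growth-limiting kinase inhibitor, the value was 68.6 (53.3 to 86.8) against 199 FPKM in scapula, 136 in gluteus and 220.1 in intercostal muscle, and opposite GNAS, a G protein locus, it was 1577 against 3297 FPKM in scapula, 2177 in gluteus and 3137 in intercostal muscle. Hormone and growth genes had 157 of 379 intronic transcripts higher and 74 lower, near the background.

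Markers of other cell types were measured only through these transcripts, and they did not move as 1 group. All 4 antisense transcripts at endothelial genes were lower, beside 30.8% lower over all antisense transcripts, with 16.9 RPM in sum in longissimus thoracis against 442 in scapula, 356 in gluteus and 334 in intercostal muscle. Opposite CDH5, the cadherin of endothelial junctions, the value was 9.75 (6.83 to 13.5) FPKM against 88.3 FPKM in scapula, 92.8 in gluteus and 88.5 in intercostal muscle, and opposite CD34 it was not listed for longissimus thoracis, with 439 FPKM in scapula, 223 in gluteus and 182 in intercostal muscle. Intronic transcripts at endothelial genes gave 7 higher and 2 lower of 16, beside 38.4% and 20.3% over all intronic transcripts. They had 246 RPM in longissimus thoracis against 84.0, 36.1 and 100.1 in the same order. Of the 16, 10 lay in FLT1, named above for its high ratio. Without FLT1, 1 of 6 was higher and 1 lower, with a median log2 ratio of 0, so the higher intronic sum is mainly that of 1 gene.

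Fibroblast and matrix genes differed by class outside TIMP3. The antisense transcripts gave 23 higher and 12 lower of 45, but 39 of the 45 lay opposite TIMP3, and of the other 6, 5 were lower and 0 higher. Opposite COL3A1, a fibrillar collagen, longissimus thoracis (1156 FPKM) and gluteus (954) lay below scapula (5658) and intercostal muscle (2596), and without scapula the log2 ratio of -1.17 became -0.62. Opposite TIMP2, a metalloproteinase inhibitor, longissimus thoracis was lowest at 10.8 (8.33 to 13.9) against 169.6 FPKM in scapula, 63.9 in gluteus and 72.3 in intercostal muscle. The intronic transcripts of the list gave 50 higher and 12 lower of 86, with a median log2 ratio of 2.43, beside 38.4% higher and 20.3% lower over all intronic transcripts. Of the 86, 20 lay in FBN1, and without it 35 of 66 were higher and 11 lower, with a median of 1.75. Against the mean of the other muscles 47 of the 86 were higher and 32 lower, with a median of 1.37.

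The remaining marker lists held few transcripts or calls in both directions. Of 132 intronic transcripts at adipocyte genes, 118 of them in EBF1, 45 were higher and 39 lower, beside 38.4% and 20.3% over all intronic transcripts. In smooth muscle and pericyte genes, 2 of 4 antisense transcripts were lower, and opposite MYH11, the smooth muscle myosin, longissimus thoracis (159 FPKM) and gluteus (147) lay below scapula (355) and intercostal muscle (706), with a ratio of -1.15 that was -0.65 without intercostal muscle. Leukocyte genes gave 6 higher and 5 lower of 16 intronic transcripts. Nerve and Schwann cell genes gave 1 higher and 2 lower of 9 intronic transcripts, and opposite MUSK, the receptor kinase of the neuromuscular junction, the level was 56.4 (47.4 to 66.6) against 34.6 FPKM in scapula, 14.2 in gluteus and 7.27 in intercostal muscle. No transcript was assigned to an erythroid gene. The part of other cell types in the differences above was not tested.

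Intergenic transcripts have no gene assigned, and with a mean of 20 or more reads 871 of 3287 were higher and 874 lower. Those with the highest ratios were listed for longissimus thoracis alone or with 1 other muscle, such as transcript TCONS_00171249 with 97 reads, or 172 (139.7 to 210.2) FPKM, and TCONS_00069147 with 86, or 173 (138 to 214) FPKM. Among the lowest, all 5 were not listed for longissimus thoracis. TCONS_00125692 had 177 reads in scapula, 177 in gluteus and 173 in intercostal muscle, and TCONS_00133352 had 143, 108 and 93 in the same order.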

How the data were processed

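Total RNA of 4 muscles was sequenced as 1 pooled library each. The submitters' processing notes name the build UMD3.1, Cufflinks 2.1.1 and TopHat2 2.0.9, without saying what each did. How strand was treated, which filters defined noncoding transcripts and which annotation served are not given in the sources. The tables deposited by the authors give FPKM values, list only values above 0, and name each transcript by an identifier that holds its gene and its Cufflinks class code.

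Here the tables were joined on the whole identifier with Python 3.11.15, numpy 2.4.6, pandas 2.3.3 and scipy 1.17.1. The log2 ratio is log2((FPKM + 1)/(median FPKM of the other 3 muscles + 1)), which understates the differences of low transcripts. Library totals at which each of the 115374 values equals whole reads divided by a whole length (relative error under 1e-11) were found, and reads and lengths were taken as the smallest that give the values, so Poisson intervals are at their widest. Some reads may have been counted for several transcripts. The scripts were tested on simulated data. No p-value was computed.

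The comparison, the 25 gene lists and the rule for named genes were chosen with earlier results of these data known, and the groups of structured RNA after their values were seen. The rule named, for antisense and intronic transcripts each, the 15 highest and 15 lowest ratios among those above or below each other muscle, and the 10 highest and lowest among those with 20 or more reads in every library. It also named 5 and 5 intergenic transcripts, 8 and 8 host genes, 15 transcripts listed for longissimus thoracis alone, 15 not listed for it, and up to 5 transcripts of highest mean level per list. A few of these transcripts are not reported here. Of 6589 gene names, 5994 were found in the RefSeq table of assembly ARS-UCD2.0, used for names only. No genome was used, so transcripts have no coordinates here. The alternatives were other pseudocounts, filters and fold sizes, size factors, the mean of the other muscles, and each other muscle left out.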

Additional observations from a re-analysis of the deposited data

How the results depend on the processing

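No paired analysis was possible because each muscle has 1 library and no spread between samples can be estimated. With a pseudocount of 10 FPKM, 7856 transcripts were lower, and the lower share of called transcripts was 54.9% for antisense, 24.9% for intronic and 26.5% for intergenic transcripts. Requiring 10 reads in at least 1 library, it was 36.3% for intronic and 39.9% for intergenic transcripts. Against the mean of the other 3 muscles, 35247 were lower, with shares of 70.9%, 62.2% and 61.9% for antisense, intronic and intergenic transcripts. At 4-fold, 606 were higher and 774 lower among those listed in all 4 libraries, and the lower share was 32.1% for intronic and 33.3% for intergenic transcripts. Without scapula, 22869 were lower, with shares of 67.6%, 49.1% and 50.4%. Without gluteus, 32160.0 were lower, with 66.4%, 60.5% and 59.6%. Without intercostal muscle, 29877 were lower, with 67.8%, 57.8% and 57.7%. With a mean of 20 or more reads over the libraries, which was chosen after seeing the data, 1726 were higher and 1588 lower, with 63.9%, 33.3% and 50.1%.

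The well-read transcripts not listed for longissimus thoracis numbered 596 at 10 reads, 32 at 50 reads, 527 without gluteus and 327 without intercostal muscle, since fewer libraries then set the minimum. Of 338 named transcripts in 3042 comparisons, 2328 stayed within the spread allowed and 705 moved, and in 9 a called transcript (4 of the 238 called) turned sign. Transcripts within 2-fold turned sign in a further 52 of 900 comparisons (31 of 100 transcripts), and in 54 a ratio of 0 fell below 0. For the transcript at bta-mir-331 the log2 ratio was -0.17 against the mean, -0.62 without gluteus and -0.70 without intercostal muscle. In UNC13C it was -0.17 without scapula and -0.20 without intercostal muscle. At SNORD71 it was -0.36 without scapula and -0.36 without gluteus. Opposite NR4A3 it was -0.23 without scapula and -0.21 without intercostal muscle. The median of the fibroblast and matrix antisense list was -0.015 without gluteus. For the 16 host genes, 20 of 144 comparisons moved and kept their sign. For the 31 list medians, 34 of 279 comparisons moved, and several medians fell below 0. Against the mean, the intronic median went from 0 to -3.28 for fatty acid genes and to -3.58 for genes of autophagy and protein breakdown. The intronic myogenic median went from 0.40 to -0.13 without gluteus. Others stayed above 0 against the mean, such as 1.37 for intronic fibroblast and matrix transcripts. The cause was not tested. Depth limits low transcripts: 1 read on 300 nucleotides is worth 1.56 FPKM in longissimus thoracis and 3.01 in gluteus.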
